A study of Mus musculus with 14 samples.

Results

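The epithelial linings of the bladder and of the pelvic urethra were compared just before birth in the mouse, at E18.5 (embryonic days, noon of the plug day counted as E0.5), from RNA sequencing of 3 bladder and 3 urethra libraries, which are 6 of the 14 libraries of the series. The rule took every gene of the E18.5 count table that passed a filter on low counts, which left 17513 genes tested of 55228 in the table. All embryos were described as untreated, wild type CD-1 females. The tissues of each litter were pooled, so a library stands for a pool and not for 1 animal. The epithelium was peeled from the surrounding stroma with trypsin and forceps. The other 8 libraries hold bladder and urethral epithelium of E14.5 embryos (4 each) and are used at the end, to ask how far the difference between the organs had changed since that stage. The labels do not say which bladder and urethra libraries came from the same litter.

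Both linings develop from the endodermal urogenital sinus. The bladder lining, the urothelium, is a stretchable barrier of basal, intermediate and superficial umbrella cells, and the umbrella cells cover their urine side with plaques of uroplakins, which are membrane proteins assembled in pairs. The urethral lining is more varied along its length and can hold urothelial, stratified, secretory and hormone-releasing cells, and its budding is driven by androgens, which makes the prostate in males. In both organs the epithelium secretes Sonic hedgehog, and the stroma around it answers by transcribing the receptor gene Ptch1 and the factor gene Gli1.

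Levels below are CPM, the usual depth-scaled count, in which a gene's count is divided by the library total after edgeR's trimmed mean of M-values (TMM) scaling. They are given as the mean ± SD over 3 libraries unless single libraries are listed in replicate order. A log2 fold change is bladder over urethra, so a positive value means higher in bladder. Tests are edgeR's quasi-likelihood test, with p-values adjusted by the Benjamini-Hochberg method over all genes tested and called below 0.05. Of the genes tested, 37.9% passed (6635 genes), 19.3% as higher in bladder (3373) and 18.6% as higher in urethra (3262). At least a 2-fold difference was reached by 11.1% in the bladder direction (1947) and 9.07% in the urethra direction (1589). The bladder and urethra libraries did not overlap in CPM for 51.6% of genes (9043). The count for each gene group below is read against these shares, and the groups share some genes.

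The 6 libraries held 21101269 to 29474152 counts in bladder and 22932734 to 35097576 in urethra, with 22355 to 24258 genes detected. The first principal component took 74.9% of the variance and separated the organs. The bladder libraries also carried more RNA of stromal marker genes. Summed over the 20 mesenchyme genes of the list, the level was 21360 to 32210 CPM in bladder libraries, against 5327 to 6583 CPM in urethra libraries, and 17 of the 20 genes were higher in bladder, with 0 higher in urethra (median log2 fold change 1.78, against -0.026 over all genes). Smooth muscle (12 of 12 genes higher in bladder), endothelium (11 of 12), macrophages and leukocytes (13 of 14) and mast cells (9 of 10) went the same way. Col1a1, a fibrillar collagen chain of stromal cells, was at 9086, 7382 and 5950 CPM in bladder, against 1287, 1372 and 1512 CPM in urethra. Myh11, the smooth muscle myosin, was at 2478, 1766 and 1003 CPM in bladder, against 97.5, 191.5 and 184.1 CPM in urethra. Bladder replicate 1 was the richest in both genes and replicate 3 the poorest, and the groups did not overlap.

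**Figure D1:**
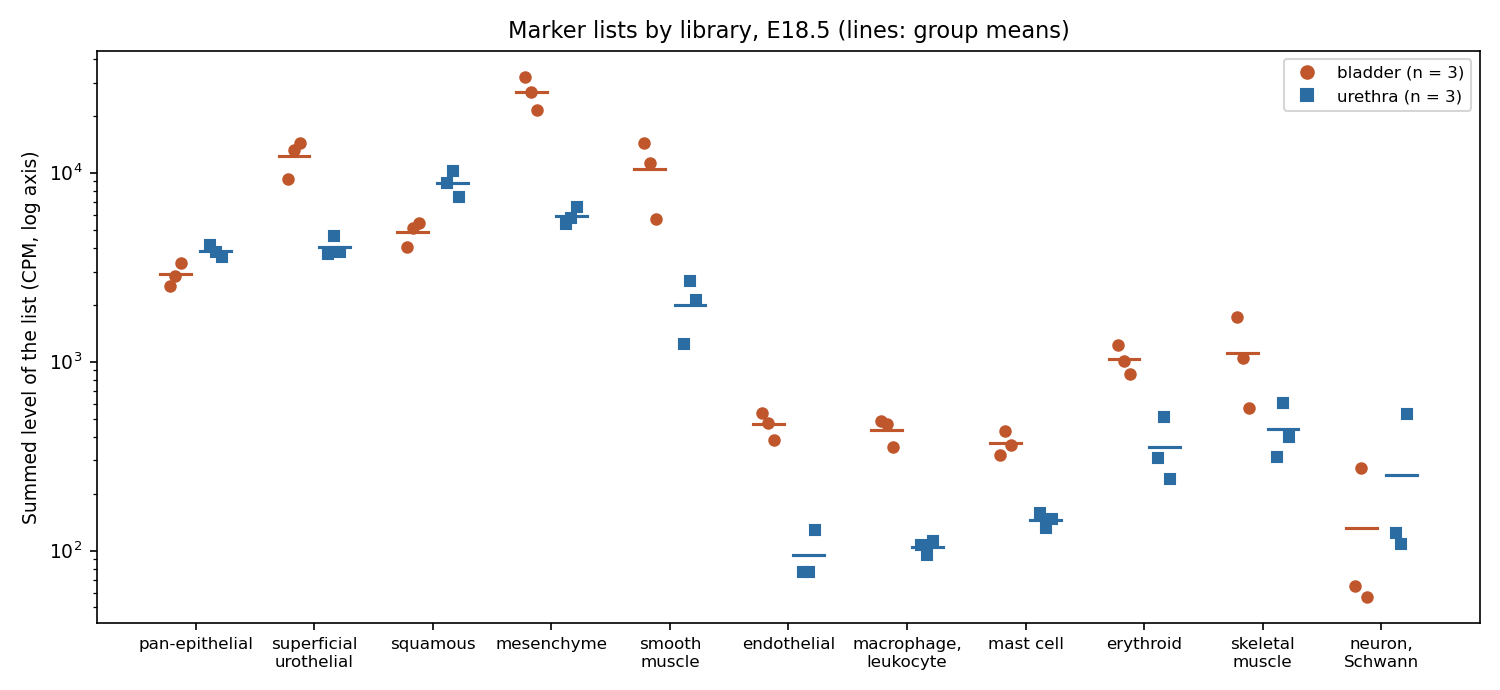
Summed CPM of 11 marker lists in each E18.5 library, on a log axis, with bladder libraries as circles, urethra libraries as squares and lines at the group means (n = 3 each). Mesenchyme runs from 21360 to 32210 CPM in bladder libraries, against 5327 to 6583 CPM in urethra libraries, while the pan-epithelial sum runs from 2521 to 3342 CPM in bladder, against 3570 to 4156 CPM in urethra.

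The 7 pan-epithelial genes summed to 2521 to 3342 CPM in bladder, against 3570 to 4156 CPM in urethra. Of these, 0 passed toward bladder and 3 toward urethra (Epcam, Cdh1 and St14), with a median log2 fold change of -0.33. The urethra count was 1 in the fit over all 14 libraries, and without bladder replicate 1, bladder replicate 2 or urethra replicate 1. Epcam, an epithelial adhesion molecule, averaged 271 ± 54.8 CPM in bladder, against 577 ± 31.1 CPM in urethra. Its difference was the widest of the 7. When libraries were scaled on these 7 genes in place of TMM, the all-gene median of the log2 fold change moved to 0.355, the calls in the bladder direction numbered 5142 (29.4%) and those in the urethra direction 1339 (7.65%), and the bladder share of the calls went to 79.3% where TMM gave 50.8%. This second scaling is given below wherever it moves a count by more than 1.5 times. With a mesenchyme score per library (the mean log2 level of the list, 7.77 to 8.48 in bladder and 6.47 to 6.73 in urethra) entered as a covariate, the fit called 0 genes in the bladder direction and 2 in the urethra direction. The score separates the organs as well as the labels do, so in these 6 libraries organ and stromal content cannot be told apart by that fit. In such bulk samples fewer cells of a type and less RNA per cell cannot be told apart either.

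The uroplakin and superficial cell genes were higher in bladder. Of the 10 genes, 8 passed toward bladder and 0 toward urethra, with a median log2 fold change of 1.76, and with the pan-epithelial scaling all 10 passed. Upk3a, which pairs with Upk1b in the plaque, was at 1406, 1787 and 2049 CPM in bladder, against 134.8, 188.1 and 259.1 CPM in urethra (log2 fold change 3.17 ± 0.26 SE, adjusted p = 6.71e-05). Upk2, which pairs with Upk1a, was at 799, 1126 and 1180 CPM in bladder, against 135.2, 134.8 and 186.5 CPM in urethra (log2 fold change 2.77 ± 0.20 SE, adjusted p = 3.95e-05). The lowest bladder library, replicate 1, stayed more than 4 times above the highest urethra library for both genes. The partner genes Upk1a and Upk1b differed less, with log2 fold changes of 1.76 ± 0.17 SE each. In CPM per kilobase of exon, which allows genes to be set beside each other, Upk3a was at 1599 and Upk1b at 1402 in bladder, against 178 for Upk3a and 414 for Upk1b in urethra. The urethral epithelium therefore held uroplakin transcripts too, in all 3 libraries.

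Upk3b, a further uroplakin, averaged 566 ± 151 CPM in bladder, against 94.1 ± 19.03 CPM in urethra (log2 fold change 2.59 ± 0.23 SE, adjusted p = 0.000113). Krt20, a keratin of the most mature umbrella cells, was at 67.5, 174.7 and 223.8 CPM in bladder, against 27.2, 77.3 and 34.2 CPM in urethra. Its groups overlapped, since bladder replicate 1 lay below urethra replicate 2, and its call (log2 fold change 1.75 ± 0.49 SE, adjusted p = 0.0230) was lost without bladder replicate 2 (adjusted p = 0.0569), bladder replicate 3 (0.0683), urethra replicate 1 (0.0733) or urethra replicate 3 (0.0605). Without urethra replicate 2 its log2 fold change was 2.33. The list also holds Snx31, Rab27b, Mal and Psca, which lie outside the rule for named genes and were picked after their values were seen. Of these, Snx31, an endosomal sorting protein of umbrella cells, averaged 815 ± 254 CPM in bladder, against 215 ± 35.8 CPM in urethra (adjusted p = 0.000562). Psca, a surface antigen of the urothelium, averaged 1475 ± 362 CPM in bladder, against 936 ± 257 CPM in urethra and did not pass (adjusted p = 0.0573), while with the pan-epithelial scaling it did (adjusted p = 0.00206).

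The transcription factors listed as urothelial did not follow the uroplakins as a group. Of 20 tested, 4 were higher in bladder (Pparg, Gata2, Klf4 and Tbx2) and 11 higher in urethra, with a median log2 fold change of -0.52. Under the pan-epithelial scaling the counts were 6 and 7, and in a fit over all 14 libraries 4 and 6. Pparg, the nuclear receptor that drives umbrella cell maturation, was at 81.8, 129.5 and 118.2 CPM in bladder, against 28.2, 32.5 and 34.3 CPM in urethra (log2 fold change 1.80 ± 0.18 SE, adjusted p = 0.000169). Tbx2, a T-box repressor, averaged 213 ± 25.8 CPM in bladder, against 45.7 ± 2.62 CPM in urethra (log2 fold change 2.22 ± 0.12 SE, adjusted p = 1.34e-05). Both genes separated the organs without overlap.

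Elf3, Gata3 and Elf5 went the other way. Elf3, an epithelial ETS factor, was at 117.5, 167 and 137.8 CPM in bladder, against 443, 418.9 and 442.1 CPM in urethra (log2 fold change -1.63 ± 0.14 SE, adjusted p = 9.21e-05). Gata3, a zinc finger factor of the urothelial lineage, averaged 147 ± 22.0 CPM in bladder, against 339 ± 65.1 CPM in urethra (log2 fold change -1.20 ± 0.17 SE, adjusted p = 0.00105). Elf5, related to Elf3 and known from the mammary gland, averaged 7.78 ± 1.11 CPM in bladder, against 57.6 ± 5.82 CPM in urethra. Grhl3 and Foxa1, both known in urothelial differentiation, did not pass (adjusted p = 0.365 and 0.122): Grhl3 averaged 246 ± 59.3 CPM in bladder, against 212 ± 3.17 CPM in urethra, and Foxa1 averaged 250 ± 41.8 CPM in bladder, against 320 ± 51.2 CPM in urethra. Grhl3 passed as higher in bladder with the pan-epithelial scaling (adjusted p = 0.0260) or without bladder replicate 1 (0.0206), and Foxa1 as higher in urethra without urethra replicate 2 (0.0465).

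**Figure D2:**
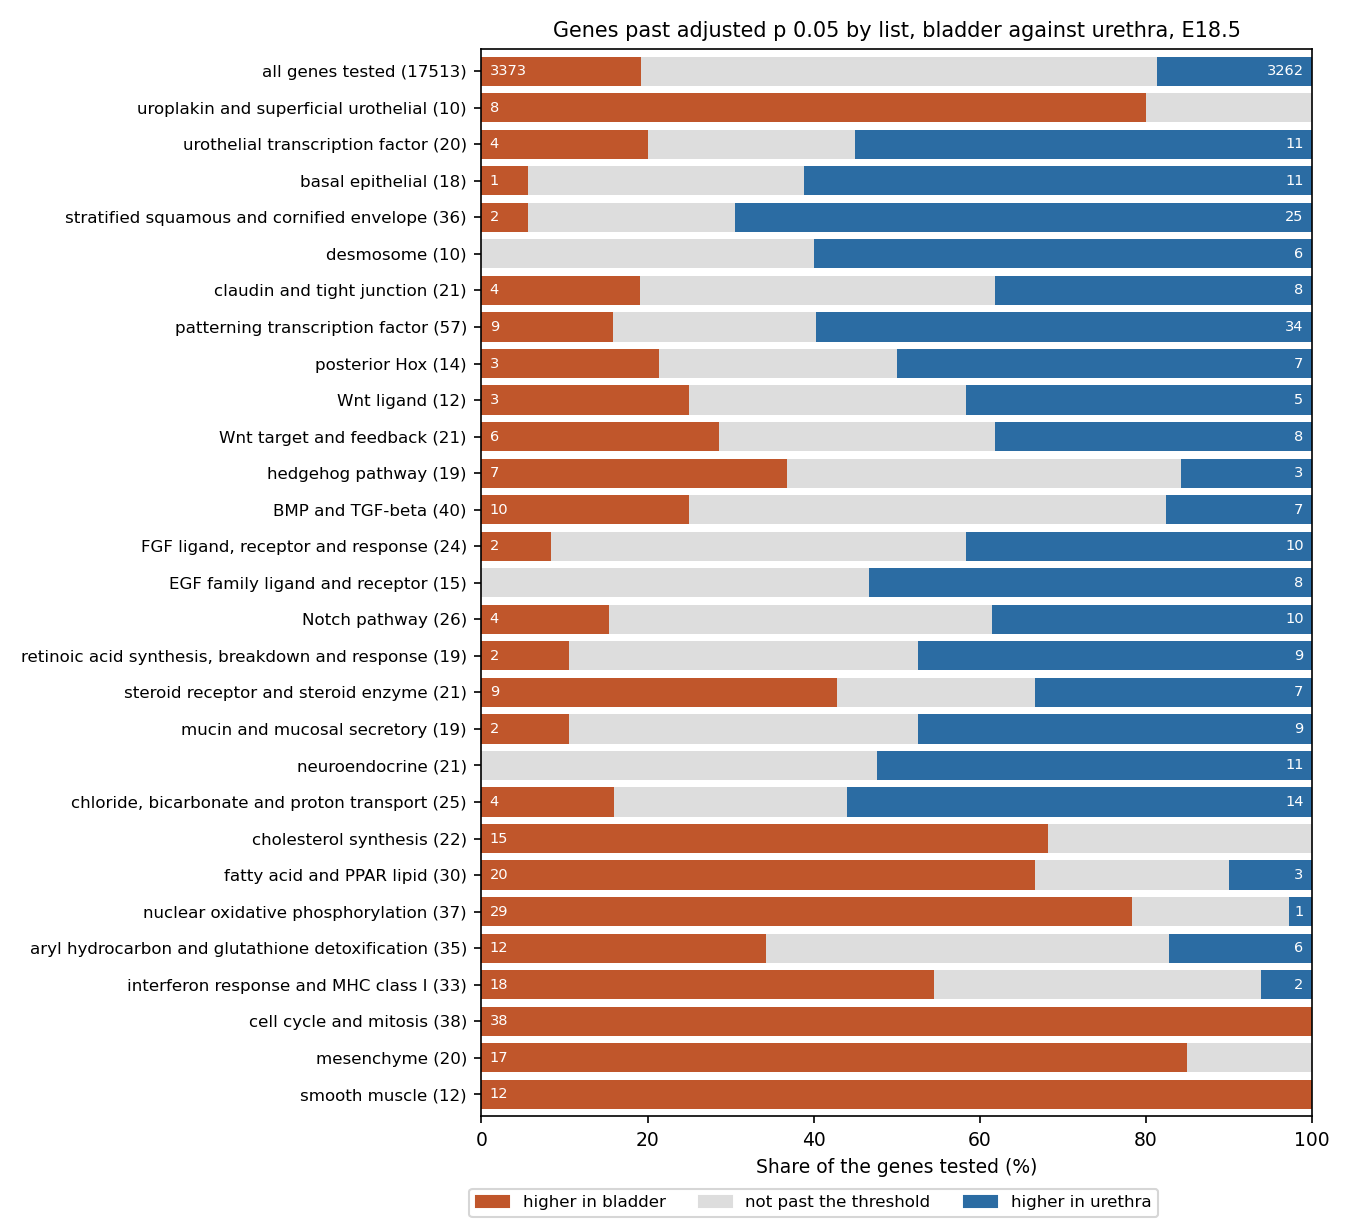
Share of the tested genes of 28 lists that was called higher in bladder (left, brown) or higher in urethra (right, blue) at an adjusted p under 0.05, with the genes tested in brackets and the counts in the bars, and with all 17513 genes in the top bar. The cell cycle list is wholly on the bladder side (38 of 38), the squamous list is mostly on the urethra side (25 of 36), and the hedgehog list is divided (7 and 3 of 19).

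Genes of stratified squamous epithelium, the program of skin and oral lining that ends in a crosslinked cornified envelope, were mostly higher in urethra. Of 43 listed, 36 were tested, 2 passed as higher in bladder (Ivl and Sprr1a) and 25 as higher in urethra, with a median log2 fold change of -1.41. The pan-epithelial scaling gave counts of 6 for bladder and 23 for urethra. The bladder count was 1 without bladder replicate 2, bladder replicate 3, urethra replicate 1 or urethra replicate 3, and 5 without bladder replicate 1 or urethra replicate 2. In the fit over all 14 libraries 0 were higher in bladder and 16 in urethra. The sequence just before the start of 4 of these genes is shown first, since the members that went opposite ways carry the same short motif there.

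The 250 bases before the RefSeq gene start (mouse build GRCm38.p6) are printed on the gene's own strand, and capitals mark TGANTCA, the letters bound by AP-1, a dimer of Fos and Jun proteins. Lor, at chr3:92083143-92083392 (minus strand), encodes loricrin, the main protein of the cornified envelope, and Scel, at chr14:103513091-103513340 (plus strand), encodes sciellin, a precursor of the envelope. Sprr1a, at chr3:92485882-92486131 (minus strand), and Ivl, at chr3:92573736-92573985 (minus strand), encode a small proline-rich linker and involucrin, both crosslinked into the envelope.
Lor: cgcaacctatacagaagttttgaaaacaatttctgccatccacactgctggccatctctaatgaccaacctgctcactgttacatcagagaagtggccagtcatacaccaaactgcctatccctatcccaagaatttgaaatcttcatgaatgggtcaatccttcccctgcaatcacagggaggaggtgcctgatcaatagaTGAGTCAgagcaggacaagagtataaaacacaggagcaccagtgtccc
Scel: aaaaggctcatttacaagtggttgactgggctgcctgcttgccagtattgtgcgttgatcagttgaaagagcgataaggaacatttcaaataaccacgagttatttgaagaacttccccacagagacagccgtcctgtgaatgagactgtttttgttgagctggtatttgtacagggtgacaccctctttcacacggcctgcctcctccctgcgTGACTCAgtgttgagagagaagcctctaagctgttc
Sprr1a: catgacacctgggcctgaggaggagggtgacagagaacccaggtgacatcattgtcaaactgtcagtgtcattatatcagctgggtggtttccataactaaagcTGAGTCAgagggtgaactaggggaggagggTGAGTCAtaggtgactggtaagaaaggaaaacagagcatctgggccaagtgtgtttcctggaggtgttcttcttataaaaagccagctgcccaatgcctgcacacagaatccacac
Ivl: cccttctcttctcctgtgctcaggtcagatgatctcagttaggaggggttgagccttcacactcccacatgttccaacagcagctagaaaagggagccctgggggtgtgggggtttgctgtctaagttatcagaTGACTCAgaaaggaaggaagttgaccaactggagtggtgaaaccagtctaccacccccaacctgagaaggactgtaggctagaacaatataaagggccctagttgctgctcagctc

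The motif lay 48 bases before the start of Lor, 36 before Scel, 146 and 116 before Sprr1a and 116 before Ivl. It was present on either strand in 14 of the 25 squamous genes that matched a RefSeq promoter (56%), against 713 of 12120 tested genes that matched (5.88%), and the search covered 6 motifs in all. Of the 14 genes, 2 were higher in bladder, 9 higher in urethra and 3 not past the test. TATAAA stood before 9 of the 25 squamous genes (36%), against 8.44% of the tested genes.

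Krt4 and Krt13, keratins of mucosal squamous lining, were abundant in urethra. Krt4 was at 295.5, 364.9 and 351.5 CPM in bladder, against 3436, 3172 and 2836 CPM in urethra. Krt13, the partner of Krt4, was at 8.28, 16.9 and 5.68 CPM in bladder, against 695.3, 1099 and 517.8 CPM in urethra (log2 fold change -6.21 ± 0.48 SE, adjusted p = 5.36e-05). Per kilobase of exon, Krt4 and Krt13 stood at 158 and 5.65 CPM in bladder, against 1476 and 423 CPM in urethra. Bladder thus held Krt4 with little of its partner, while urethra held both.

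Krt6a, a keratin of activated or mucosal keratinocytes, averaged 27.8 ± 5.30 CPM in bladder, against 400 ± 119 CPM in urethra. Krt2, a keratin of late epidermal layers, had 0 counts in the bladder libraries and 26.5, 20.4 and 26.7 CPM in urethra, which makes it at least 575-fold lower in bladder at a floor of 3 counts over the group (348 to 629 without any 1 library). Cnfn, a cornified envelope protein, also had 0 counts in bladder and was at 9.28, 20.4 and 1.28 CPM in urethra, at least 244-fold lower in bladder by the same floor. Its urethra level varied more than that of Krt2, with replicate 2 the highest, and without that library the bound was 105-fold (147 to 375 without any 1 of the others).

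Envelope proteins fell on each side. Lor was at 1.54, 1.46 and 1.93 CPM in bladder, against 104.7, 60.6 and 86.8 CPM in urethra (log2 fold change -5.68 ± 0.25 SE, adjusted p = 7.36e-06). Scel, chosen after its values were seen, averaged 3.94 ± 1.84 CPM in bladder, against 70.4 ± 17.9 CPM in urethra. Sprr1a was at 1272, 1837 and 1964 CPM in bladder, against 527.4, 742.6 and 549.3 CPM in urethra (log2 fold change 1.48 ± 0.20 SE, adjusted p = 0.000736), and missed the threshold in the fit over all 14 libraries (adjusted p = 0.0558). Ivl averaged 276 ± 71.1 CPM in bladder, against 148 ± 47.2 CPM in urethra. Its call (adjusted p = 0.0258) was lost without bladder replicate 2 (0.0868), bladder replicate 3 (0.0596), urethra replicate 1 (0.0750) or urethra replicate 3 (0.0566).

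Basal cell genes were also mostly higher in urethra. Of 18 tested, 1 was higher in bladder (Bcam) and 11 in urethra, with a median log2 fold change of -0.53. Under the pan-epithelial scaling 6 were higher in urethra, in the fit over all 14 libraries 5, and without urethra replicate 1 the counts were 0 for bladder and 8 for urethra, and without urethra replicate 2 they were 0 and 10. Krt17 was at 0.950, 4.21 and 0.626 CPM in bladder, against 166.2, 179.3 and 167.1 CPM in urethra (log2 fold change -6.39 ± 0.54 SE, adjusted p = 8.13e-05). Bladder replicate 2 set the bladder level, and without it the log2 fold change was -7.73. Col17a1, a hemidesmosome collagen that anchors basal cells, averaged 107 ± 22.0 CPM in bladder, against 647 ± 89.1 CPM in urethra (log2 fold change -2.60 ± 0.18 SE, adjusted p = 3.50e-05). Krt15, a keratin of basal progenitors, averaged 1719 ± 169 CPM in bladder, against 4162 ± 438 CPM in urethra (log2 fold change -1.27 ± 0.13 SE, adjusted p = 0.000195).

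Krt5 and Trp63, which define basal cells, differed little. Krt5 averaged 1744 ± 215 CPM in bladder, against 2249 ± 39.0 CPM in urethra (log2 fold change -0.37 ± 0.12 SE, adjusted p = 0.0410), a call lost without any 1 of bladder replicate 1 (0.123), bladder replicate 2 (0.165), urethra replicate 1 (0.107), urethra replicate 2 (0.0585) or urethra replicate 3 (0.0955). With the pan-epithelial scaling its log2 fold change was 0.003. Trp63, the p63 factor that sustains stratified epithelia, averaged 167 ± 15.2 CPM in bladder, against 246 ± 45.7 CPM in urethra (adjusted p = 0.0189). That call was lost with the pan-epithelial scaling (0.488) and without bladder replicate 1 (0.0577), bladder replicate 2 (0.0708), urethra replicate 1 (0.0527) or urethra replicate 3 (0.0583).

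**Figure D3:**
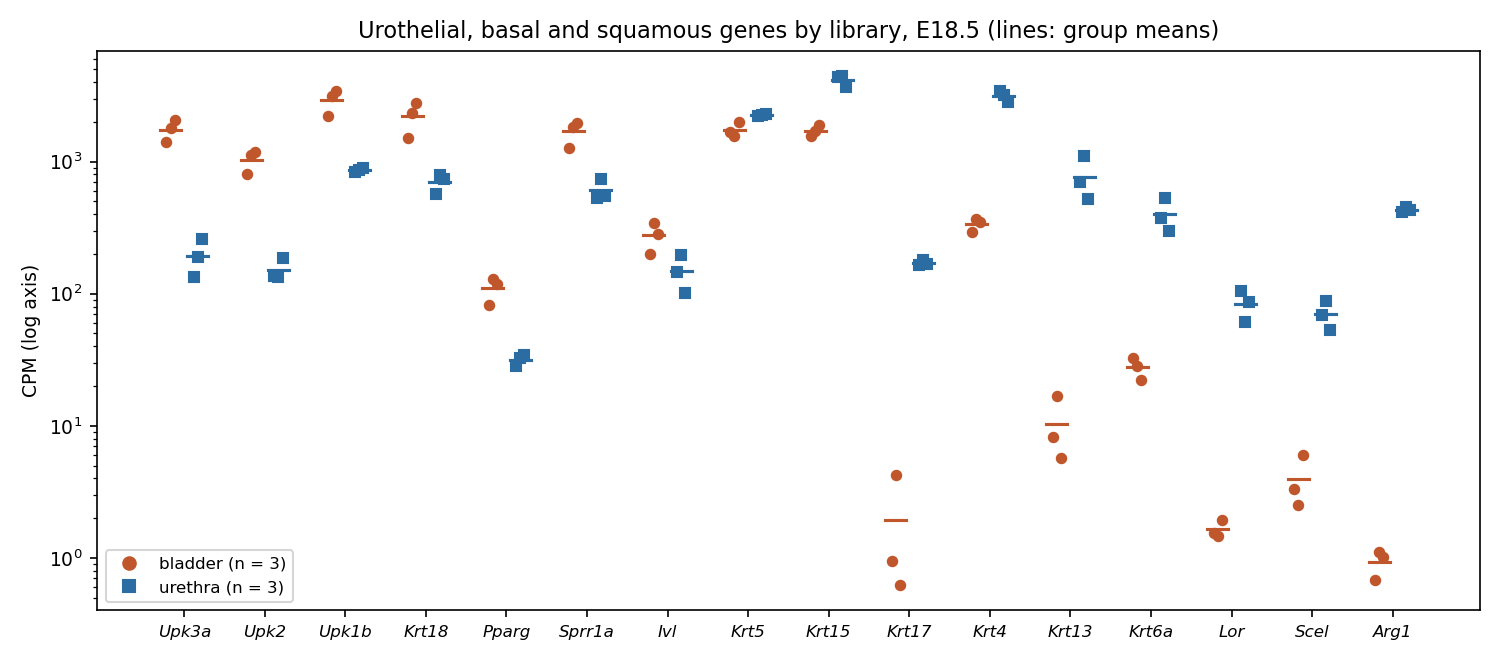
CPM of 16 epithelial genes in each E18.5 library on a log axis, with bladder libraries as circles, urethra libraries as squares and lines at the group means (n = 3 each). The uroplakin genes, Krt18, Pparg and Sprr1a lie higher in bladder, Krt5 differs least, and Krt17, Krt13, Lor and Arg1 lie between 0.626 and 16.9 CPM in bladder libraries, against 60.6 to 1099 CPM in urethra libraries.

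Desmosome genes were higher in urethra and tight junction genes were divided. Of 10 desmosome genes tested, 0 passed toward bladder and 6 toward urethra (median log2 fold change -0.79). With the pan-epithelial scaling the counts were 3 for bladder and 5 for urethra, and without bladder replicate 1 they were 3 and 6. Pkp1, a plakophilin of suprabasal layers, was at 21.8, 26.8 and 24.5 CPM in bladder, against 448.9, 352.7 and 448.5 CPM in urethra (log2 fold change -4.10 ± 0.15 SE, adjusted p = 5.40e-06). Dsg3, a desmosomal cadherin of stratified epithelium, averaged 0.584 ± 0.323 CPM in bladder, against 23.3 ± 3.86 CPM in urethra. Of 21 tight junction genes, 4 were higher in bladder and 8 in urethra (median -0.16). With the pan-epithelial scaling 3 were higher in urethra, in the fit over all 14 libraries 4, and without bladder replicate 1 or 2, or urethra replicate 1, the urethra count was 5, 5 and 4. Cldn3, a sealing claudin, averaged 7.97 ± 4.81 CPM in bladder, against 206 ± 41.6 CPM in urethra, whereas Cldn1, a barrier claudin, averaged 34.5 ± 4.34 CPM in bladder, against 10.3 ± 1.05 CPM in urethra (adjusted p = 0.000128 and 9.84e-05).

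Among simple epithelial keratins, Krt7, Krt8 and Krt18 were higher in bladder, Krt19 did not pass and Krt23 was higher in urethra. Krt18 was at 1509, 2326 and 2757 CPM in bladder, against 569, 794.2 and 737.2 CPM in urethra (log2 fold change 1.65 ± 0.23 SE, adjusted p = 0.000828). Krt8, its partner, averaged 2657 ± 774 CPM in bladder, against 1385 ± 330 CPM in urethra (adjusted p = 0.0163), a result lost without bladder replicate 3 (0.0507) or urethra replicate 1 (0.0659). Of the 12 genes of the list, 3 were higher in bladder (these 3 keratins) and 6 in urethra (Krt23 and the luminal or adhesion genes Cldn3, Cldn7, Prom1, Ceacam1 and Muc1), against 1 and 5 without bladder replicate 3 and 1 and 5 without urethra replicate 1.

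Patterning transcription factors, which assign regional identity in the embryo, were mostly higher in urethra. Of 83 listed, 57 were tested, 9 were higher in bladder and 34 in urethra, with a median log2 fold change of -1.32. In the fit over all 14 libraries the counts were 5 and 31. Irx2, of the Iroquois homeobox family, was at 0.317, 0.714 and 0.578 CPM in bladder, against 99.3, 69.7 and 110.7 CPM in urethra (log2 fold change -7.40 ± 0.29 SE, adjusted p = 6.17e-06). Its neighbours in function, Irx1 and Irx5, were also below 1 CPM in every bladder library, and averaged 23.1 ± 8.28 and 27.7 ± 4.74 CPM in urethra. Pax9, a paired box factor of foregut and tooth development, had 2 counts in all in bladder and 29.5, 29.9 and 37.6 CPM in urethra, a ratio of 1160 with a counting interval of 321 to 9590 (95%, exact). Both bladder counts lay in replicate 3. Without it Pax9 was at least 547-fold lower in bladder, and without bladder replicate 2 the ratio was 702.

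Factors of sensory and surface epithelium were among them. Sp8 averaged 0.809 ± 0.0553 CPM in bladder, against 67.8 ± 13.4 CPM in urethra, and Tfap2a, the AP-2alpha factor, averaged 1.36 ± 0.203 CPM in bladder, against 60.6 ± 5.89 CPM in urethra. Barx2 averaged 12.7 ± 2.16 CPM in bladder, against 207 ± 13.2 CPM in urethra (log2 fold change -4.03 ± 0.15 SE, adjusted p = 5.40e-06). Sox2, a factor of progenitor cells in foregut and sensory organs, was at 4.34, 4.32 and 4.14 CPM in bladder, against 86.8, 54.7 and 78.1 CPM in urethra. Sox9 averaged 28.3 ± 4.88 CPM in bladder, against 209 ± 44.6 CPM in urethra. Foxa2, the foregut and endoderm forkhead factor, averaged 0.404 ± 0.267 CPM in bladder, against 11.4 ± 2.24 CPM in urethra. In none of these 6 genes did the groups overlap.

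Sox17, Foxq1, Tbx2, Tbx5, Msx2, Sp5, Pitx1 and Lhx6 were among the list members higher in bladder. Tbx20, a T-box factor known from heart development and not a member of the list, averaged 57.9 ± 23.5 CPM in bladder, against 2.11 ± 1.48 CPM in urethra (log2 fold change 4.73 ± 0.49 SE, adjusted p = 0.000206). Without urethra replicate 3, the highest of its group for Tbx20, the log2 fold change was 5.45.

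Posterior Hox genes mark position along the body axis, with the last paralogs of each cluster used furthest toward the tail. Of 14 tested, 3 were higher in bladder (Hoxa11, Hoxc11 and Hoxd9) and 7 in urethra, with a median log2 fold change of -0.29. The counts were 1 and 6 without bladder replicate 1, without urethra replicate 1 and in the fit over all 14 libraries. From Hoxd9 to Hoxd13, at the posterior end of the HoxD cluster, the log2 fold change was 0.67 ± 0.21 for Hoxd9, -1.79 ± 0.29 for Hoxd10, -2.67 ± 0.27 for Hoxd11, -3.60 ± 0.31 for Hoxd12 and -3.67 ± 0.23 for Hoxd13 (SE). Hoxd12 and Hoxd13 differed by less than their SEs. Hoxd9 and Hoxd10 were added to this series after their values were seen. At the other end of the cluster Hoxd1, with 0.0861 ± 0.0130 CPM in bladder, against 1.38 ± 0.364 CPM in urethra, was also higher in urethra (log2 fold change -3.94 ± 0.49 SE, adjusted p = 0.000505), so the values do not follow gene order along the whole cluster. The call of Hoxd9 (adjusted p = 0.0358) was lost without bladder replicate 1 (0.0825), bladder replicate 3 (0.0676), urethra replicate 1 (0.110) or urethra replicate 2 (0.0841).

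Hoxd13, the last gene of the cluster and the one needed for the terminal urogenital tract, was at 12.5, 6.79 and 7.42 CPM in bladder, against 122.8, 104.8 and 112.6 CPM in urethra (adjusted p = 2.57e-05). Hoxb13, known for its role in the prostate, averaged 11.2 ± 2.44 CPM in bladder, against 31.1 ± 2.56 CPM in urethra (adjusted p = 0.000451). Hoxa13 differed less, at 53.2 ± 5.39 CPM in bladder, against 102 ± 23.3 CPM in urethra (adjusted p = 0.00335), and missed the threshold with the pan-epithelial scaling (0.0594). Hoxa11 ran the other way, at 75.7, 63.0 and 71.5 CPM in bladder, against 40.6, 43.7 and 43.2 CPM in urethra (adjusted p = 0.00119).

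**Figure D4:**
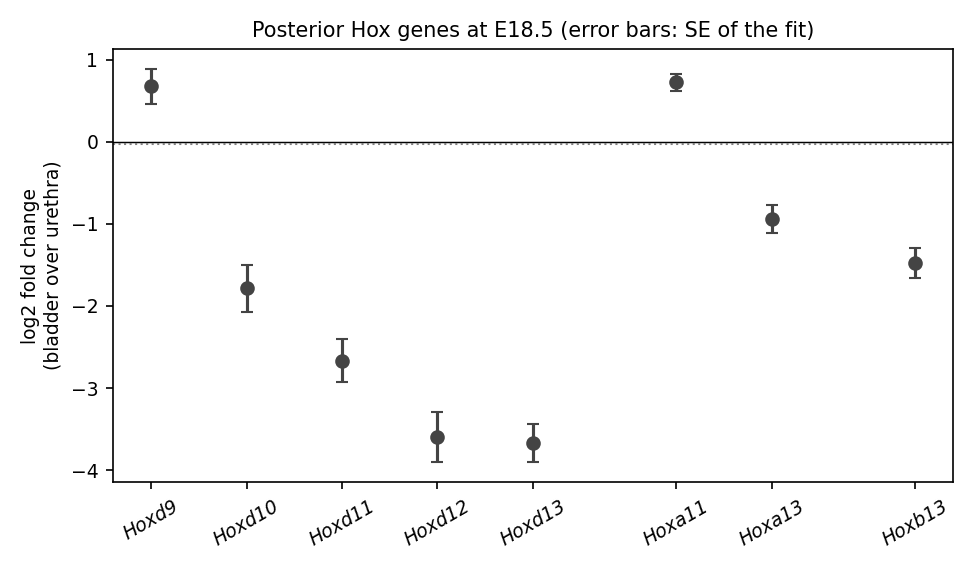
Log2 fold change of bladder over urethra at E18.5 for 8 posterior Hox genes, with the SE of the fit as error bars and a dotted line at the median of all genes (-0.026). From Hoxd9 to Hoxd13 the values go from 0.67 to -3.67, Hoxa11 stands at 0.72, and Hoxa13 and Hoxb13 are below 0.

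Signals that pass between epithelium and stroma are given by role. The hedgehog ligand genes Shh and Ihh were higher in urethra, and the third, Dhh, did not pass. Shh was at 163.4, 169.1 and 220.6 CPM in bladder, against 378.3, 276.3 and 392.7 CPM in urethra (log2 fold change -0.92 ± 0.17 SE, adjusted p = 0.00371). Ihh, the Indian hedgehog ligand, was at 2.85, 0.714 and 0.674 CPM in bladder, against 31.6, 20.6 and 23.3 CPM in urethra (log2 fold change -4.16 ± 0.51 SE, adjusted p = 0.000500), and without bladder replicate 1, the highest of its group, its log2 fold change was -5.13. Genes of the receiving side, Ptch1 and Gli1, were higher in bladder. Ptch1, the receptor, was at 336.7, 262.6 and 240.9 CPM in bladder, against 117, 86.3 and 122.1 CPM in urethra (log2 fold change 1.37 ± 0.18 SE, adjusted p = 0.000581). Gli1, the transcriptional effector, averaged 48.8 ± 12.97 CPM in bladder, against 16.6 ± 3.26 CPM in urethra (adjusted p = 0.000861). Of 19 pathway genes, 7 were higher in bladder and 3 in urethra (Shh, Ihh and Sufu). The mesenchyme list was also higher in bladder, with a sum of 21360 to 32210 CPM, against 5327 to 6583 CPM in urethra. Over the bladder libraries Ptch1, Gli1 and that sum were each highest in replicate 1 and lowest in replicate 3. Over the urethra libraries the sum was highest in replicate 3, where Gli1 was lowest and Ptch1 highest. The part of stromal RNA in the Ptch1 and Gli1 differences was not tested.

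Scube2, a secreted protein that releases hedgehog ligand, was at 31.0, 41.6 and 44.9 CPM in bladder, against 2.81, 3.94 and 4.33 CPM in urethra (log2 fold change 3.40 ± 0.22 SE, adjusted p = 2.87e-05). Over the bladder libraries Scube2 was lowest in replicate 1, where Ptch1, Gli1 and Col1a1 were highest. The part of stromal RNA in the Scube2 difference was not tested.

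Wnt ligands were divided between the organs, with 3 of 12 tested higher in bladder (Wnt2, Wnt2b and Wnt11) and 5 higher in urethra, and with 5 and 3 under the pan-epithelial scaling. Wnt2, a ligand made by mesenchyme in other endodermal organs, averaged 77.9 ± 15.1 CPM in bladder, against 5.37 ± 1.19 CPM in urethra (log2 fold change 3.87 ± 0.21 SE, adjusted p = 1.25e-05). Wnt5a, a ligand of non-canonical signaling, averaged 32.3 ± 8.45 CPM in bladder, against 103 ± 11.8 CPM in urethra (log2 fold change -1.67 ± 0.19 SE, adjusted p = 0.000302).

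Of 21 Wnt targets and feedback genes, 6 were higher in bladder and 8 in urethra, and 8 and 4 with the pan-epithelial scaling. Lgr5, an R-spondin receptor and stem cell marker, was at 4.52, 2.36 and 1.59 CPM in bladder, against 60.7, 49.8 and 65.3 CPM in urethra (log2 fold change -4.37 ± 0.33 SE, adjusted p = 4.99e-05). Axin2, the general readout of canonical Wnt signaling, did not pass, at 23.3 ± 2.90 CPM in bladder, against 25.8 ± 1.91 CPM in urethra (log2 fold change -0.15 ± 0.14 SE, adjusted p = 0.449), and stood at 0.249 with the pan-epithelial scaling. Wif1, a secreted Wnt inhibitor, averaged 0.395 ± 0.215 CPM in bladder, against 11.2 ± 3.48 CPM in urethra (adjusted p = 0.000115).

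Among BMP ligand genes, Bmp2, Bmp3, Bmp4, Bmp5 and Bmp6 were higher in bladder, while Bmp7, Bmp8a and Bmp8b did not pass. Bmp3 was at 310.4, 357.3 and 393.3 CPM in bladder, against 40.0, 45.4 and 74.8 CPM in urethra (log2 fold change 2.73 ± 0.24 SE, adjusted p = 9.67e-05). Bmp5 averaged 74.0 ± 15.5 CPM in bladder, against 8.06 ± 1.46 CPM in urethra, and Bmp4 averaged 77.3 ± 17.5 CPM in bladder, against 21.0 ± 1.71 CPM in urethra (adjusted p = 2.27e-05 and 0.000111). Id2, a target of BMP signaling, averaged 94.6 ± 4.77 CPM in bladder, against 198 ± 3.69 CPM in urethra (adjusted p = 0.000103). Over 40 genes of BMP and TGF-beta signaling, 10 were higher in bladder and 7 in urethra. The urethra count was 4 with the pan-epithelial scaling (15 for bladder), in the fit over all 14 libraries and without bladder replicate 2, and 11 without urethra replicate 2.

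FGF and EGF family genes leaned to urethra, though several receptor genes (Fgfr1, Fgfr4, Fgfrl1 and Egfr) did not pass. Of 24 FGF pathway genes, 2 were higher in bladder (Fgf7 and Spry4) and 10 in urethra, and without urethra replicate 1 the counts were 1 and 11, and in the fit over all 14 libraries 1 and 9. Fgfr2, the receptor for stromal FGF7 and FGF10, averaged 217 ± 45.2 CPM in bladder, against 510 ± 109 CPM in urethra (adjusted p = 0.00185). Etv4, an ETS factor induced by FGF signaling, was at 1.81, 3.68 and 1.16 CPM in bladder, against 37.2, 42.8 and 59.7 CPM in urethra (log2 fold change -4.36 ± 0.39 SE, adjusted p = 0.000105), and without bladder replicate 2 its log2 fold change was -4.95. Of 15 EGF family genes, 0 passed toward bladder and 8 toward urethra (median log2 fold change -0.59). Erbb2, the coreceptor of the family, averaged 191 ± 20.7 CPM in bladder, against 369 ± 48.8 CPM in urethra (adjusted p = 0.000995).

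Notch and retinoic acid genes leaned the same way. Of 26 Notch genes, 4 were higher in bladder and 10 in urethra, with 5 and 6 under the pan-epithelial scaling and 2 and 6 in the fit over all 14 libraries. Notch3 averaged 110 ± 4.68 CPM in bladder, against 279 ± 57.5 CPM in urethra (adjusted p = 0.000375). Of 19 retinoic acid genes, 2 were higher in bladder (Rbp4 and Lrat) and 9 in urethra, with a median log2 fold change of -1.03. The bladder count was 1 in the fit over all 14 libraries and without bladder replicate 1, bladder replicate 3 or any 1 of the urethra replicates. Crabp2, which carries retinoic acid to its receptor, was at 2.17, 6.89 and 1.54 CPM in bladder, against 116.7, 133 and 108.6 CPM in urethra (log2 fold change -5.03 ± 0.47 SE, adjusted p = 0.000128), or -5.99 without bladder replicate 2. Rbp4, the blood carrier of retinol, averaged 71.3 ± 10.1 CPM in bladder, against 2.96 ± 1.39 CPM in urethra (adjusted p = 3.64e-05).

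The steroid receptor genes Esr1 and Pgr were higher in the urethra of these female embryos. Esr1, estrogen receptor alpha, averaged 12.7 ± 5.81 CPM in bladder, against 49.99 ± 4.64 CPM in urethra, and Pgr, the progesterone receptor, averaged 1.47 ± 0.426 CPM in bladder, against 6.62 ± 1.03 CPM in urethra (adjusted p = 0.00106 and 0.000799). Genes of the steroid-converting enzymes Hsd17b2 and Hsd11b1 were higher in bladder. Hsd17b2, which inactivates estradiol and testosterone, averaged 45.3 ± 6.08 CPM in bladder, against 4.48 ± 1.62 CPM in urethra (log2 fold change 3.32 ± 0.27 SE, adjusted p = 7.28e-05). Hsd11b1, which reactivates glucocorticoid, averaged 44.9 ± 3.47 CPM in bladder, against 1.18 ± 0.436 CPM in urethra (log2 fold change 5.22 ± 0.25 SE, adjusted p = 9.76e-06). Over the list of 21, 9 were higher in bladder and 7 in urethra.

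Secretory and hormone-releasing programs were higher in urethra. Of 38 mucin and mucosal genes, 19 were tested, 2 were higher in bladder (Wfdc2 and Pigr) and 9 in urethra, with a median log2 fold change of -1.33. The bladder count was 4 with the pan-epithelial scaling, 0 without bladder replicate 2 and 1 without urethra replicate 1 or 3 or in the fit over all 14 libraries. Clca1, a secreted protein of mucous cells, was at 23.6, 52.7 and 11.7 CPM in bladder, against 1414, 1860 and 863.1 CPM in urethra (log2 fold change -5.55 ± 0.58 SE, adjusted p = 0.000218), or -6.28 without bladder replicate 2. Muc4, a membrane mucin, averaged 0.295 ± 0.274 CPM in bladder, against 33.6 ± 8.96 CPM in urethra, with a log2 fold change of -6.71 ± 0.47 SE, or -7.85 without bladder replicate 2. Reg3g, an antibacterial lectin, averaged 0.675 ± 0.270 CPM in bladder, against 26.8 ± 4.18 CPM in urethra (adjusted p = 1.34e-05).

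Neuroendocrine genes were at 0 of 21 toward bladder and 11 toward urethra, with a median log2 fold change of -2.10. Tph1, which starts serotonin synthesis, averaged 0.264 ± 0.231 CPM in bladder, against 12.3 ± 2.09 CPM in urethra (adjusted p = 0.000269). Iapp, the islet peptide amylin, had 0 counts in bladder and was at 7.28, 9.83 and 6.42 CPM in urethra, at least 186-fold lower in bladder (113 to 208 without any 1 library). The neuron and Schwann cell list, by contrast, ran from 56.98 to 273.9 CPM in bladder, against 108.1 to 525.7 CPM in urethra, with overlapping groups and 1 gene called in each direction. Without bladder replicate 2 the call counts of that list were 1 for bladder and 3 for urethra, and without urethra replicate 3 they were 2 and 1.

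Transport genes were divided. Aqp3, a water and glycerol channel, was at 494.9, 504 and 551.9 CPM in bladder, against 168.6, 227 and 185.5 CPM in urethra (log2 fold change 1.42 ± 0.13 SE, adjusted p = 0.000139). Slc14a1, the urea transporter of the urothelium, averaged 110 ± 21.7 CPM in bladder, against 62.1 ± 11.8 CPM in urethra (adjusted p = 0.00796), and missed the threshold in the fit over all 14 libraries (0.122). Scnn1a, a subunit of the epithelial sodium channel, was at 2.85, 3.72 and 4.24 CPM in bladder, against 50.9, 52.6 and 41.4 CPM in urethra (log2 fold change -3.74 ± 0.19 SE, adjusted p = 1.20e-05). Over 15 genes of water, urea and sodium transport, 6 were higher in bladder and 5 in urethra. Of 25 chloride, bicarbonate and proton transport genes, 4 were higher in bladder and 14 in urethra (median log2 fold change -1.23), and in the fit over all 14 libraries 2 and 12. Foxi1, the factor of acid-base transporting ionocytes, averaged 0.181 ± 0.109 CPM in bladder, against 5.90 ± 1.35 CPM in urethra (adjusted p = 0.000125).

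Proliferation genes were higher in bladder without exception. All 38 genes of the cell cycle and mitosis list passed, with a median log2 fold change of 1.29, under TMM and under the pan-epithelial scaling. The 250 bases before the start of a pair of them are shown, to set beside the squamous ones. Capitals mark CCAAT (or ATTGG, the same on the other strand), the letters bound by NF-Y, and TTTGAA (or TTCAAA), the core of the cell cycle homology region (CHR) that the MuvB complexes bind. Ube2c, at chr2:164769679-164769928 (plus strand), encodes the ubiquitin-conjugating enzyme of the anaphase-promoting complex, and Mki67, at chr7:135716380-135716629 (minus strand), encodes the Ki-67 protein that coats mitotic chromosomes. Upk3a, at chr15:85016891-85017140 (plus strand), is printed beside them, as the uroplakin gene described above, with capitals for the same letters. The CHR letters also occur in lower case in Lor and Scel above, where only the AP-1 letters were marked.
Ube2c: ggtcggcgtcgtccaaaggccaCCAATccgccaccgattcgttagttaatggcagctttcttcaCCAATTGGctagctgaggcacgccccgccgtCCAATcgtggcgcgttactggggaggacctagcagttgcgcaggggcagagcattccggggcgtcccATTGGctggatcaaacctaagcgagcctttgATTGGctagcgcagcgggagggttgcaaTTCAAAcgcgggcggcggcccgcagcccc
Mki67: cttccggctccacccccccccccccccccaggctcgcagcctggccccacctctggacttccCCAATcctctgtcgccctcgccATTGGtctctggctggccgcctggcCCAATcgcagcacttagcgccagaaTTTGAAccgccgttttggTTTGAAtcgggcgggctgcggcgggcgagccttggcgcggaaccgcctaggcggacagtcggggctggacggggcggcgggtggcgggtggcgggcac
Upk3a: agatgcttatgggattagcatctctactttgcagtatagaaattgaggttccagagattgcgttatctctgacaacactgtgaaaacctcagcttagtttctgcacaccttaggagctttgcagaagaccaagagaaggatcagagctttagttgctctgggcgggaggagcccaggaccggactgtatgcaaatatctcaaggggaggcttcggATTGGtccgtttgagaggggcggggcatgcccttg

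CCAAT, on either strand, stood before 23 of 30 matched cell cycle genes (76.7%), against 39.9% of the 12120 matched genes. TTTGAA stood before 9 of the 30 (30%), against 13.1% of matched genes, and also before 8 of 25 squamous genes (32%). The AP-1 letters stood before 0 of the 30. Upk3a held 1 CCAAT box, 35 bases before its start, and no CHR core. In Ube2c a CHR core lay 29 bases before the start, and in Mki67 CHR cores lay 116 and 98 bases before it. CCAAT was also found before 16 of 16 matched cholesterol synthesis genes (100%), 11 of them higher in bladder and 5 not past the test.

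Ccna2, cyclin A2, was at 128.4, 121.6 and 144.5 CPM in bladder, against 44.6, 42.9 and 47.6 CPM in urethra (log2 fold change 1.55 ± 0.11 SE, adjusted p = 3.64e-05). Ube2c was at 82.5, 76.4 and 84.7 CPM in bladder, against 26.3, 29.7 and 30.4 CPM in urethra (log2 fold change 1.49 ± 0.11 SE, adjusted p = 3.80e-05). Mki67 was at 218, 240.8 and 310.5 CPM in bladder, against 91.9, 87.6 and 121.9 CPM in urethra (log2 fold change 1.35 ± 0.18 SE, adjusted p = 0.000633). Over the bladder libraries Ccna2, Ube2c and Mki67 were each highest in replicate 3, while Ccna2 and Ube2c were lowest in replicate 2. The part of stromal RNA in these differences was not tested. Of 14 cell cycle inhibitors, 3 were higher in bladder and 6 in urethra (4 and 2 with the pan-epithelial scaling), among them Btg1, an antiproliferative factor, at 223 ± 5.83 CPM in bladder, against 528 ± 38.8 CPM in urethra (adjusted p = 8.13e-05).

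Lipid and oxidative metabolism genes were higher in bladder. Of 22 cholesterol synthesis genes, 15 were higher in bladder and 0 in urethra (median log2 fold change 0.71). Insig1, which holds the sterol sensor in the endoplasmic reticulum, averaged 77.9 ± 13.6 CPM in bladder, against 30.8 ± 5.66 CPM in urethra (adjusted p = 0.000604). Of 30 fatty acid and PPAR lipid genes, 20 were higher in bladder and 3 in urethra (median 1.21). The urethra count was 1 with the pan-epithelial scaling, in the fit over all 14 libraries, and without bladder replicate 3, urethra replicate 1 or urethra replicate 3. Elovl6, a fatty acid elongase, was at 203.2, 313.1 and 309.4 CPM in bladder, against 36.0, 47.7 and 59.9 CPM in urethra (log2 fold change 2.52 ± 0.23 SE, adjusted p = 0.000121).

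Fabp4, a lipid carrier and known target of PPAR-gamma, was chosen after its values were seen, and was at 407.1, 822.1 and 932.2 CPM in bladder, against 20.8, 80.7 and 132.3 CPM in urethra (log2 fold change 3.20 ± 0.61 SE, adjusted p = 0.00391). Its log2 fold change was 3.82 without urethra replicate 3, and its call was lost in the fit over all 14 libraries (adjusted p = 0.0680). Cd36, a fatty acid importer that is also made by endothelium and macrophages, averaged 41.0 ± 7.81 CPM in bladder, against 3.43 ± 1.21 CPM in urethra. The endothelial list summed to 385 to 537 CPM in bladder, against 77.3 to 128 CPM in urethra, and its part in the Cd36 difference was not tested.

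Of 37 nuclear genes of oxidative phosphorylation, 29 were higher in bladder and 1 in urethra (Ndufa6), with a small median log2 fold change of 0.41. The count depended on single libraries. It was 21 without bladder replicate 1, 15 without bladder replicate 2, 20 without bladder replicate 3, 12 without urethra replicate 1, 29 without urethra replicate 2 and 10 without urethra replicate 3, whereas with the pan-epithelial scaling it was 36. The urethra count was 0 with that scaling, in the fit over all 14 libraries and without any 1 library other than urethra replicate 3. Sdhd, a subunit of succinate dehydrogenase, averaged 157 ± 8.70 CPM in bladder, against 86.9 ± 11.4 CPM in urethra (adjusted p = 0.000901).

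Detoxification genes were divided, with 12 of 35 higher in bladder and 6 in urethra, and 19 and 6 with the pan-epithelial scaling, or 7 and 5 in the fit over all 14 libraries. Gstm1, a glutathione transferase with close paralogs among which reads can be split, was at 1258, 1218 and 1299 CPM in bladder, against 365, 270.4 and 349.4 CPM in urethra (adjusted p = 3.77e-05, and 0.0785 in the fit over all 14 libraries). Fmo2, a flavin monooxygenase, averaged 40.9 ± 8.34 CPM in bladder, against 158 ± 31.8 CPM in urethra (adjusted p = 0.000163). Of 33 interferon and MHC class I genes, 18 were higher in bladder and 2 in urethra (Isg20 and Usp18), and 10 and 0 in the fit over all 14 libraries. Bst2, the virus-tethering protein, averaged 25.5 ± 2.77 CPM in bladder, against 5.71 ± 0.571 CPM in urethra (adjusted p = 4.87e-05). Interferon response genes are also made by leukocytes, whose list summed to 355 to 488 CPM in bladder, against 94.5 to 112 CPM in urethra, and that part was not tested.

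Proteases and matrix genes were divided too. Of 27 epithelial serine proteases and inhibitors, 5 were higher in bladder and 13 in urethra, with 8 and 11 under the pan-epithelial scaling, 3 and 11 without bladder replicate 2, and 3 and 10 in the fit over all 14 libraries. Klk13, a kallikrein of mucosal squamous lining, was at 0.362, 0.822 and 0.385 CPM in bladder, against 40.4, 35.3 and 18.9 CPM in urethra (log2 fold change -5.85 ± 0.42 SE, adjusted p = 3.80e-05). Tmprss2, a membrane protease known from the prostate, went the other way, at 844 ± 153 CPM in bladder, against 226 ± 46.8 CPM in urethra (log2 fold change 1.9 ± 0.19 SE, adjusted p = 0.000178). Of 35 collagen genes, 18 were higher in bladder and 11 in urethra, with 20 and 5 under the pan-epithelial scaling and 13 and 5 in the fit over all 14 libraries. Col9a3, a chain known from cartilage, averaged 3.41 ± 1.15 CPM in bladder, against 114 ± 29.2 CPM in urethra (adjusted p = 1.33e-05), opposite to Col1a1.

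Guidance and stress genes leaned to urethra. Of 45 Eph, semaphorin, slit and netrin genes, 6 were higher in bladder and 22 in urethra, with 8 and 10 under the pan-epithelial scaling. Of 29 immediate early and stress genes, which also respond to tissue handling, 3 were higher in bladder and 12 in urethra, with 4 and 5 under the pan-epithelial scaling and 4 and 7 without bladder replicate 2. The part of tissue handling was not tested. Skeletal muscle genes went both ways, with 4 of 17 higher in bladder and 9 in urethra, or 2 and 9 without urethra replicate 1 and in the fit over all 14 libraries. Myod1, the muscle-determining factor, had 6 counts in all in bladder and was at 4.89, 10.5 and 4.72 CPM in urethra (adjusted p = 8.01e-05), whereas Ckm, the creatine kinase of muscle, averaged 140 ± 72.4 CPM in bladder, against 29.0 ± 9.96 CPM in urethra (adjusted p = 0.00299).

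Among the widest differences of all genes, Arg1, the arginase of the urea cycle, was at 0.679, 1.11 and 1.01 CPM in bladder, against 416, 454.5 and 430 CPM in urethra (log2 fold change -8.84 ± 0.19 SE, adjusted p = 2.88e-07). Adamts18, a secreted metalloprotease, was at 0.271, 0.5 and 0.867 CPM in bladder, against 192.4, 141.6 and 231.3 CPM in urethra (log2 fold change -8.44 ± 0.34 SE, adjusted p = 6.17e-06). Clca3b, of the same family as Clca1, averaged 0.114 ± 0.0277 CPM in bladder, against 82.6 ± 53.1 CPM in urethra, with urethra replicate 3 the lowest of its group at 22.2 CPM. Car12, a membrane carbonic anhydrase, averaged 2.30 ± 0.455 CPM in bladder, against 79.0 ± 21.8 CPM in urethra.

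In the bladder direction the widest differences were smaller. Serpina3c, a serine protease inhibitor, was at 10.1, 8.07 and 8.09 CPM in bladder and had 9 counts in all in urethra (log2 fold change 6.45 ± 0.47 SE, adjusted p = 3.98e-05, or 7.28 without urethra replicate 2). Cck, the hormone cholecystokinin, averaged 22.4 ± 5.70 CPM in bladder, against 0.435 ± 0.251 CPM in urethra (log2 fold change 5.61 ± 0.40 SE, adjusted p = 3.88e-05). Adamdec1, a metalloprotease known from gut stroma and macrophages, was at 283, 191.6 and 262.6 CPM in bladder, against 7.11, 7.42 and 14.2 CPM in urethra (adjusted p = 2.87e-05). Cpa3 and Cma1, proteases of mast cells, averaged 45.9 ± 9.84 and 43.3 ± 12.9 CPM in bladder, against 1.28 ± 1.06 and 1.43 ± 1.03 CPM in urethra.

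At 16-fold or more, 61 genes were higher in bladder and 278 in urethra. Of the 278 the highest bladder library was replicate 1 for 62, replicate 2 for 92 and replicate 3 for 75, with no counts in bladder for 49. Of the 61 the highest urethra library was replicate 1 for 7, replicate 2 for 18 and replicate 3 for 34. For urethra genes the highest bladder library was thus most often replicate 2, and for bladder genes the highest urethra library was most often replicate 3. These ranks do not show how the signal of a gene was shared between libraries.

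How far the organs had moved since E14.5 was asked with an interaction, the bladder over urethra log2 fold change at E18.5 minus that at E14.5, fitted over all 14 libraries. Of 18286 genes tested, 22.9% passed (4183), 12.2% toward bladder (2233) and 10.7% toward urethra (1950). Under the pan-epithelial scaling these counts were 12488 and 290, and the median interaction over all genes went to 1.29 where TMM gave -0.01, so a direction is read relative to the scaling. The median log2 fold change of the mesenchyme genes changed sign, from -1.07 at E14.5 to 1.84 at E18.5. In the interaction 19 of 20 passed toward bladder. At E14.5 alone the fit called 13 of the 20 toward urethra and 0 toward bladder. Col1a1 was not called at that age (log2 fold change -0.114, adjusted p = 0.846). Its E14.5 libraries overlapped, at 310.9 to 1470 CPM in bladder, against 491.6 to 1583 CPM in urethra. The summed mesenchyme level was not compared at E14.5.

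Cell cycle genes differed more at E18.5 than at E14.5, with a median log2 fold change of 1.35 at E18.5 and 0.30 at E14.5, and 27 of 38 passed toward bladder and 0 toward urethra (38 and 0 with the pan-epithelial scaling). Mki67 was at 229.4, 256.9 and 317.3 CPM in bladder, against 92.3, 88.8 and 122.1 CPM in urethra at E18.5 in the scaling of all 14 libraries. At E14.5 it was at 290.1 to 408.3 CPM in bladder, against 259.7 to 337.6 CPM in urethra (interaction 1.11 ± 0.23 SE on the log2 scale, adjusted p = 0.00596). Mki67 overlapped between the organs at E14.5, but 15 of the 38 genes were already higher in bladder then, among them Ccna2 (log2 fold change 0.62 at E14.5, adjusted p = 0.00368) and Ube2c (0.65, adjusted p = 0.00315).

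Genes of the hedgehog response lay on opposite sides at the 2 ages. Of the 19 pathway genes, 7 passed toward bladder and 2 toward urethra, or 15 and 1 with the pan-epithelial scaling and 4 and 2 without E18.5 bladder replicate 1. Ptch1 was at 354.3, 280.1 and 246.2 CPM in bladder, against 117.5, 87.5 and 122.3 CPM in urethra at E18.5, and at 66.7 to 108.6 CPM in bladder, against 165.5 to 347.3 CPM in urethra at E14.5 (interaction 3.14 ± 0.35 SE, adjusted p = 0.000240). Gli1 gave an interaction of 3.75 ± 0.64 SE (adjusted p = 0.00229). At each age the organ with more Ptch1 was also the one with the higher mesenchyme median, and the part of stromal RNA in this change was not tested. Ihh went the other way, at 3.00, 0.762 and 0.689 CPM in bladder, against 31.7, 20.9 and 23.3 CPM in urethra at E18.5, and at 34.3 to 127.1 CPM in bladder, against 8.36 to 44.4 CPM in urethra at E14.5 (interaction -6.11 ± 0.92 SE, adjusted p = 0.00124).

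More squamous genes passed toward urethra than toward bladder. Krt13 was at 8.71, 18.02 and 5.81 CPM in bladder, against 698.2, 1114 and 518.6 CPM in urethra at E18.5, and at 0.740 to 1.24 CPM in bladder, against 0.161 to 5.502 CPM in urethra at E14.5 (interaction -5.38 ± 1.16 SE, adjusted p = 0.00671). Its partner Krt4 did not pass (interaction -1.72 ± 0.88 SE, adjusted p = 0.179), and ranged from 109.8 to 1661 CPM in urethra at E14.5. Over 36 squamous genes, 2 passed toward bladder and 15 toward urethra (3 and 14 with the pan-epithelial scaling), and the urethra count was 28 without E14.5 urethra replicate 1 and 7 without E18.5 urethra replicate 2, with 8 to 15 when any 1 of the other libraries was left out. Uroplakin genes already differed at E14.5, where 10 of 10 were higher in bladder, and 2 of 10 passed toward urethra by E18.5, or 8 without E14.5 urethra replicate 1 and 0 to 2 without any 1 of the other libraries. Pparg was at 86.1, 138.1 and 120.8 CPM in bladder, against 28.3, 32.9 and 34.3 CPM in urethra at E18.5, and at 110.8 to 187.5 CPM in bladder, against 3.78 to 22.1 CPM in urethra at E14.5 (interaction -1.78 ± 0.55 SE, adjusted p = 0.0342). Under TMM scaling its bladder lead was narrower at E18.5. The pan-epithelial genes moved the same way under TMM, with a median interaction of -1.23 and 5 of 7 passing toward urethra.

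The regional identity gene Irx2 was higher in urethra at both ages. It was at 0.333, 0.762 and 0.591 CPM in bladder, against 99.8, 70.6 and 110.9 CPM in urethra at E18.5, and at 0.854 to 1.24 CPM in bladder, against 43.3 to 184.9 CPM in urethra at E14.5, with an interaction of -0.67 ± 0.67 SE that did not pass (adjusted p = 0.513). Without a pass an interaction does not show that a difference was the same at both ages.

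**Figure D5:**
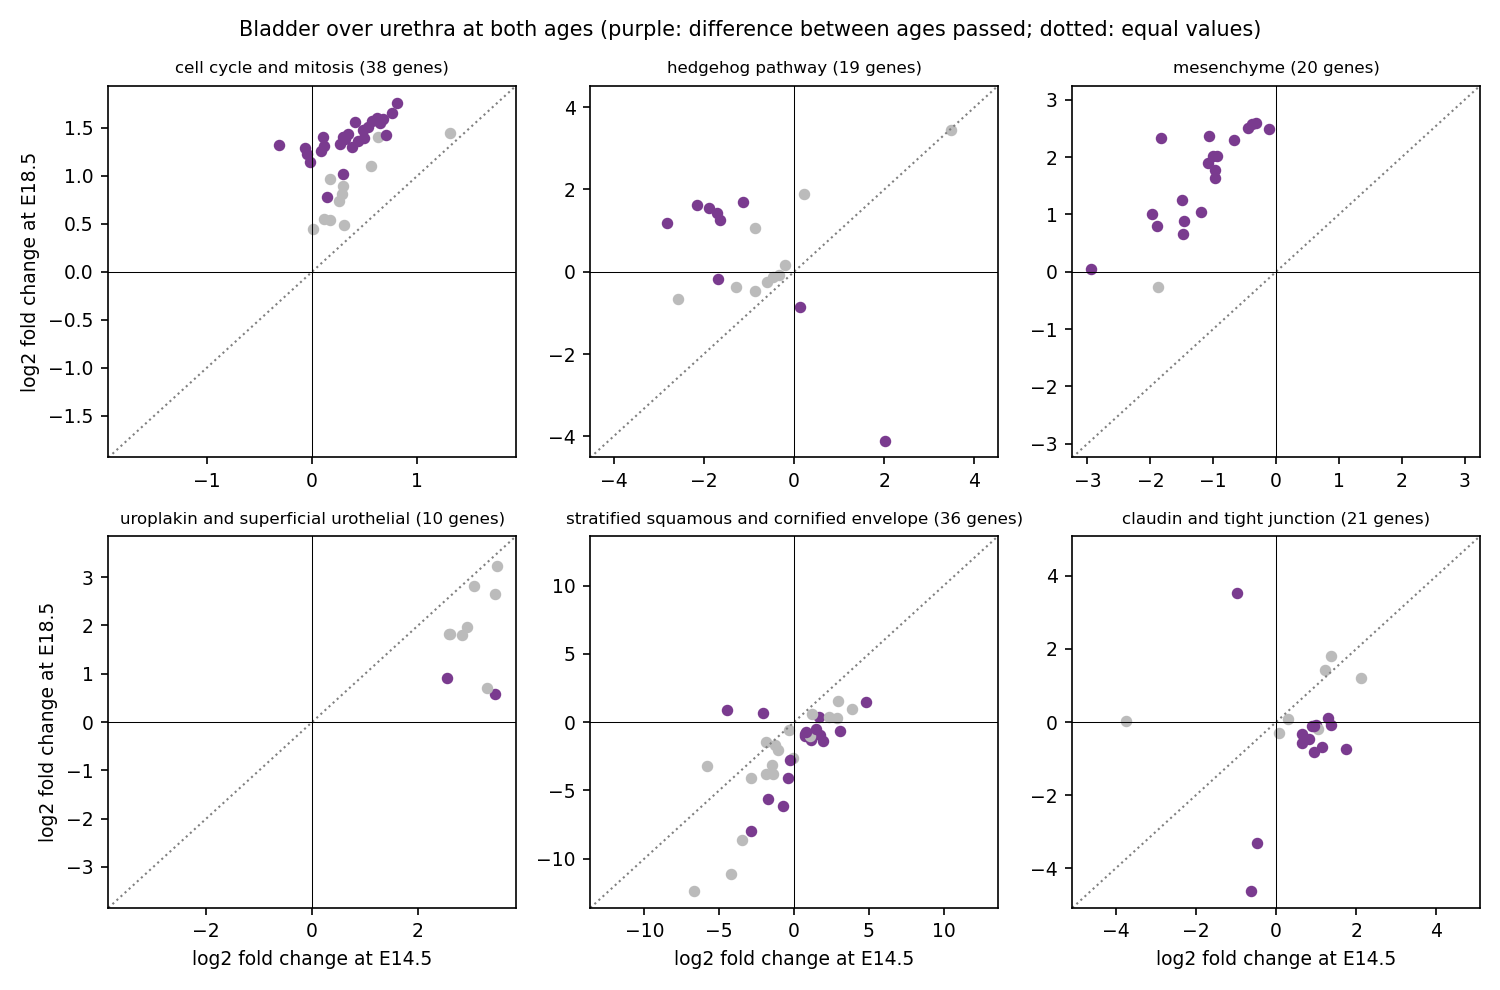
Log2 fold change of bladder over urethra at E14.5 (horizontal axis) and at E18.5 (vertical axis) for the genes of 6 lists, from the fit over all 14 libraries, with purple points where the difference between ages passed and a dotted line of equal values. Cell cycle genes lie above the line (27 of 38 purple), mesenchyme genes lie left of 0 and mostly above 0 (19 of 20 purple), and uroplakin genes lie below the line in the quadrant higher in bladder at both ages.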

How the data were processed

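Gene counts of 6 bladder and urethra libraries of E18.5 were analysed, with 8 of E14.5 for the change between ages. Per the labels' protocols, 60 ng of RNA of pooled litters was poly(A) selected, made into directional libraries and sequenced in pairs. The deposited values are raw counts per gene. HISAT2 2.2.1 and the GRCm38 build are listed in the submitters' processing notes, with SAMtools 1.9 and bcl2fastq. Which program counted the reads, with which annotation and strand setting, is not given in the sources used here, so overlapping and antisense genes cannot be told apart. Counts of 2 were more frequent than counts of 1 in each library, so counting intervals are too narrow, and they cover counting error only.

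Counts were filtered (filterByExpr), TMM-scaled and tested in R 4.3.3 by edgeR's quasi-likelihood method (version 4.0.16), and p-values were adjusted after Benjamini and Hochberg over all genes tested. The age interaction used all 14 libraries. Alternatives used limma 3.58.1, DESeq2 1.42.0, other scalings, filters and covariates, and each library left out. The code was tested on simulated data. Replicates are litter pools, so p-values measure the spread between pools. Per the labels' protocols each litter gave both tissues, but no label links the numbers to litters.

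The genes and the 54 lists were chosen with earlier results of these data known. Named genes are the 15 widest differences in each direction (at least 5 CPM, groups apart), the 15 most abundant with a 2-fold difference, up to 4 members of each list (lowest adjusted p first) plus its strongest member against the majority, a fixed panel, and the 6 largest interactions in each direction. The interactions were taken among genes that passed both for the interaction and at E18.5, with a mean of at least 5 CPM in the highest group. Predicted and unnamed symbols were passed over for the widest differences and the interactions. Genes named only as the members of a count were named after their values were seen, as were 16 others. Promoter sequences are RefSeq's.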

Additional observations from a re-analysis of the deposited data

Results flagged for a closer look

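These results are set apart by the change between ages, which was tested with the interaction over all 14 libraries. The 12 genes here gave the largest interactions (log2 scale, E18.5 minus E14.5) among genes that passed both for the interaction and at E18.5. A mean of at least 5 CPM in the highest group was also required. Predicted and unnamed symbols were passed over, so larger interactions can lie outside the 12. Toward bladder the interactions were 9.86 for Tpsb2, 8.90 for Cma1, 7.79 for Cpa3, 7.62 for Mc5r, 7.08 for Hdc and 6.83 for Il1rl1. Of these, Tpsb2, Cma1 and Cpa3 are proteases of mast cells, and Hdc, the histamine-making enzyme, is also made by them. Hdc differed from the proteases at E14.5. It was then at 0.336 to 8.98 CPM in bladder, against 2.47 to 74.7 CPM in urethra. The proteases did not exceed 1.044 CPM in any E14.5 library. Summed over the mast cell list, E18.5 libraries held 319 to 428 CPM in bladder, against 132 to 157 CPM in urethra. Of its 10 genes, 9 were higher in bladder and 1, Kit, in urethra, so the sum does not stand for the proteases alone. Cpa3 was at 38.9 to 60.8 CPM in bladder, against 0.0855 to 2.15 CPM in urethra at E18.5. Tpsb2 had 0 counts in every E14.5 bladder library and in 3 of 4 E14.5 urethra libraries, so its interaction depends on the prior count. Mc5r had 0 counts in the E14.5 bladder libraries as well.

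Toward urethra the interactions were -8.56 for Slc26a9, a chloride and bicarbonate transporter, -6.94 for Tmprss11g, -6.69 for Vil1, the microvillus protein villin, -6.30 for S100g, -6.24 for Clca1 and -6.11 for Ihh. Slc26a9 was at 0.476, 0.229 and 0.0984 CPM in bladder, against 3.89, 7.73 and 3.64 CPM in urethra at E18.5, and at 2.08 to 8.74 CPM in bladder, against 0.0788 to 0.440 CPM in urethra at E14.5.

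A signal of another kind lay in a library of the comparison itself. Urethra replicate 3 of E18.5 had 35 counts of Y-linked genes in a total of 35097576, where the other 5 libraries of that age had 0 or 2. The labels give female embryos, and the source of these counts was not tested.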

How the results depend on the processing

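Main counts were 3373 genes higher in bladder and 3262 in urethra. Leaving out 1 library gave 2483 to 3278 and 2268 to 3350. A 2-fold minimum gave 1947 and 1589, the pan-epithelial scaling 5142 and 1339, and the mesenchyme score as covariate 0 and 2. DESeq2 size factors, limma voom, DESeq2, other filters and the fit over all 14 libraries stayed within 1.5 times. For the interaction (2233 toward bladder, 1950 toward urethra) the pan-epithelial scaling gave 12488 and 290, the covariate 16 and 41, and leaving out 1 library 1515 to 2691 and 1122 to 3006 (1122 without E18.5 urethra replicate 1, 3006 without E14.5 urethra replicate 1).

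The replicate block gave 2793 and 2570. Same-numbered libraries correlated at 0.12, -0.14 and -0.19 in their deviations. Differently numbered ones ran from -0.26 to 0.34, with the highest value for bladder replicate 2 and urethra replicate 3. With 3 libraries per organ these values cannot decide whether the numbers are pairs. The numbers are not read as pairs, since no label links them to litters.

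Some single genes changed sign (log2 fold change). Under the pan-epithelial scaling these were Esrp1 0.033, Spint1 0.031, Spint2 0.265, Foxa1 0.012, Krt5 0.003, Axin2 0.249 and Ndufa6 0.053, and in the interaction Epcam 0.005 and Irx2 0.42. With the covariate they were Cdh1 0.339, Esrp1 0.609, Spint1 0.521, Spint2 0.709, St14 0.211, Ckm -1.479, Foxa1 0.739, Krt5 0.105, Wnt7b 0.251, Shh 0.041, Fgfr3 0.339 and Fgf7 -0.159, and in the interaction Col1a1 -0.391, Muc4 1.254 and Irx2 1.125. Of 219 named genes that were called, 218 lost their call with the covariate. Of these, 210 kept their direction and 92 had a log2 fold change at least as large, such as Krt13 (-8.04) and Upk2 (3.40). The cause was not tested.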
